A study of Solanum lycopersicum with 8 samples.

Results

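The tomato (Solanum lycopersicum) invertase genes lin5, LIN8, Wiv-1 and AI were followed in mature green fruit, in RNA from the peel. They were taken by symbol from the platform's probe annotation, where each matched 1 probe set, so 4 of the 10209 probe sets on the Affymetrix Tomato Genome Array are described here. All 4 passed the filter on low signal, as did 9493 probe sets in all. RNA came from 4 genotypes with 2 biological replicates each, hybridised to 1 array per sample, 8 arrays in all. The wild type was cv. Ailsa Craig. The Aft line (Anthocyanin fruit) carries Aft/Aft, the atv line (atroviolacea) carries atv/atv, and the double mutant carries both alleles in the homozygous state. All plants were grown untreated in winter in a greenhouse heated to at least 12 °C. By the labels, peel of the wild type and of atv held no significant anthocyanin, Aft peel was pigmented in spots and double mutant peel was strongly pigmented. The labels name no cultivar for the mutant lines, so the effect of an allele and that of its line background cannot be told apart.

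Invertases split sucrose, the main sugar that tomato fruit receives from the phloem, into glucose and fructose. Cell wall invertases act outside the cell and help to draw sucrose out of the phloem into the fruit, whereas the vacuolar form sets how much sucrose and how much hexose the cells store. LIN5, LIN6 and LIN8 are names of cell wall forms, and lin5 in particular is known for a locus that sets the soluble sugar content of tomato fruit. Wiv-1 is listed in RefSeq (assembly SLM_r2.1) with the synonym LIN6, a gene known for its response to wounding. AI is listed there with the synonyms TIV1, TAI and Aiv-1, and is the vacuolar acid invertase of ripening fruit. In the same gene table Wiv-1 and LIN8 are direct neighbours on one chromosome, and lin5 is the direct neighbour of LIN7, another invertase gene.

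The arrays had median deposited intensities between 514.5 and 755.4, and the arrays of a replicate pair had a Pearson r of 0.975 to 0.984 over probe sets. The atv arrays stood apart, with a mean r of 0.917 and 0.920 with arrays of other genotypes, against 0.939 to 0.952 for the other 6 arrays. DFR, which encodes the dihydroflavonol reductase of anthocyanin synthesis, read 1.9 and 9.4 in the wild type, 1319.3 and 2013.4 in Aft, 234 and 249.1 in atv, and 10282.9 and 9883.6 in the double mutant. CHS1, a chalcone synthase gene, read 198.1 and 212.8 in the wild type, 1375.5 and 1908.7 in Aft, 10801.8 and 10822.9 in atv, and 8566.5 and 8056.2 in the double mutant. Of the peel and cuticle markers, LE16 and TSW12 had a probe set, and LE16 read at least 3583.8 on every array. TSW12 read 482.1 and 386.1 in the wild type and 235.7 and 311.9 in Aft. In atv TSW12 read 1564.2 and 1679.2, and in the double mutant 831.6 and 669.1. The seed marker MAN2 read at most 10.2 and the trichome marker MTS1 at most 16.9 on any array, and no vascular marker was named on the array. The mean log2 ratio of 3' over 5' control probe sets was 1.29 and 1.22 in atv and 0.93 to 1.48 on the other arrays.

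Values below are given first as deposited intensities, which are linear, and then as log2 of quantile-normalized intensities, on which all tests were run. Differences come from limma fitted to all 8 arrays, and adjusted p values are Benjamini-Hochberg values over the 9493 probe sets tested, with a threshold of 0.05. The 95% intervals are those of each single difference, without that adjustment. Levels of different genes cannot be set against each other, because each probe set has its own response.

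The cell wall invertase gene lin5 was low in both genotypes that carry Aft. Its deposited intensity was 386 and 375.3 in the wild type and 251.9 and 216.7 in atv. In Aft it was 23.9 and 40.5, and in the double mutant 51.2 and 38.9. The 4 arrays with Aft thus all lay below the 4 arrays without it. On the log2 scale the replicates were closest in the wild type and furthest apart in the double mutant. On the log2 scale the level was 8.55 ± 0.02 (SD, n = 2) in the wild type, 7.67 ± 0.08 in atv, 5.64 ± 0.31 in the double mutant and 5.12 ± 0.14 in Aft.

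Against the wild type, lin5 fell by 3.43 in Aft (SE 0.17, limma adjusted p = 0.00057), or 10.8-fold. In the double mutant it fell by 2.91 (SE 0.17, limma adjusted p = 0.00065), or 7.52-fold. In an atv background the Aft allele went with a fall of 2.03, since the double mutant was 4.09-fold below atv (difference -2.03, limma adjusted p = 0.00047). The difference between atv and the wild type was smaller, at -0.88 (limma adjusted p = 0.0099). That last call ended on the values as deposited (-0.70, adjusted p = 0.14), without wild type 1 (adjusted p = 0.054) and without wild type 2 (adjusted p = 0.055). In the order of lin5 levels, wild type, atv, double mutant and Aft, the last pair did not pass the test, with the double mutant 0.52 above Aft (95% interval 0.10 to 0.93, adjusted p = 0.15). In Aft carriers the lin5 signal stood above only 13.9% to 18.4% of the other probe sets of each array. No detection calls were used here, so whether those low signals lie above background is not established.

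LIN8, a further cell wall invertase gene, was high in a single genotype, atv. Its deposited intensity was 1033.5 and 804.4 in atv. It was 49.1 and 41.1 in the wild type, 30.4 and 54.6 in Aft, and 65.3 and 33.5 in the double mutant. The atv arrays lay far above the other 6, whose groups overlapped. The log2 level was 9.76 ± 0.10 (SD, n = 2) in atv, 5.66 ± 0.77 in the double mutant, 5.51 ± 0.18 in Aft and 5.50 ± 0.06 in the wild type.

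LIN8 rose 19.1-fold in atv against the wild type (log2 difference 4.26, SE 0.34, limma adjusted p = 0.00045). The double mutant lay 17.1-fold below atv (difference -4.10, SE 0.34, limma adjusted p = 0.00047), although it carries the same atv alleles. Between the double mutant and the wild type the difference was 0.16 (95% interval -0.68 to 1.0, limma adjusted p = 0.77), and between Aft and the wild type 0.0037 (95% interval -0.84 to 0.85, limma adjusted p = 0.999). The double mutant replicates of LIN8 read 6.21 and 5.12 on the log2 scale, and smaller differences within these intervals were not resolved. Outside atv the LIN8 signal stood above 14.5% to 20.5% of the other probe sets, and whether it lies above background is not established, so both folds carry that limit. The rise in atv was called with each of the 8 arrays left out in turn, at 4.20 to 4.35. The atv arrays are also those that stood apart as a whole. The cuticle genes LE16 and TSW12, which encode lipid transfer proteins, rose in the same arrays, by 1.87 and 1.90 (limma adjusted p = 0.00017 and 0.00040). They also rose in the double mutant, by 1.16 and 0.96 (limma adjusted p = 0.0033 and 0.013). There LIN8 was not called, lin5 fell, and Wiv-1 was called higher at the edge of the threshold (limma adjusted p = 0.0496). The part of these shifts in the invertase results was not tested. In peel as a whole, a change in the number of cells that express a gene and a change in its RNA per cell cannot be told apart, for this and all other genes here.

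**Figure D1:**
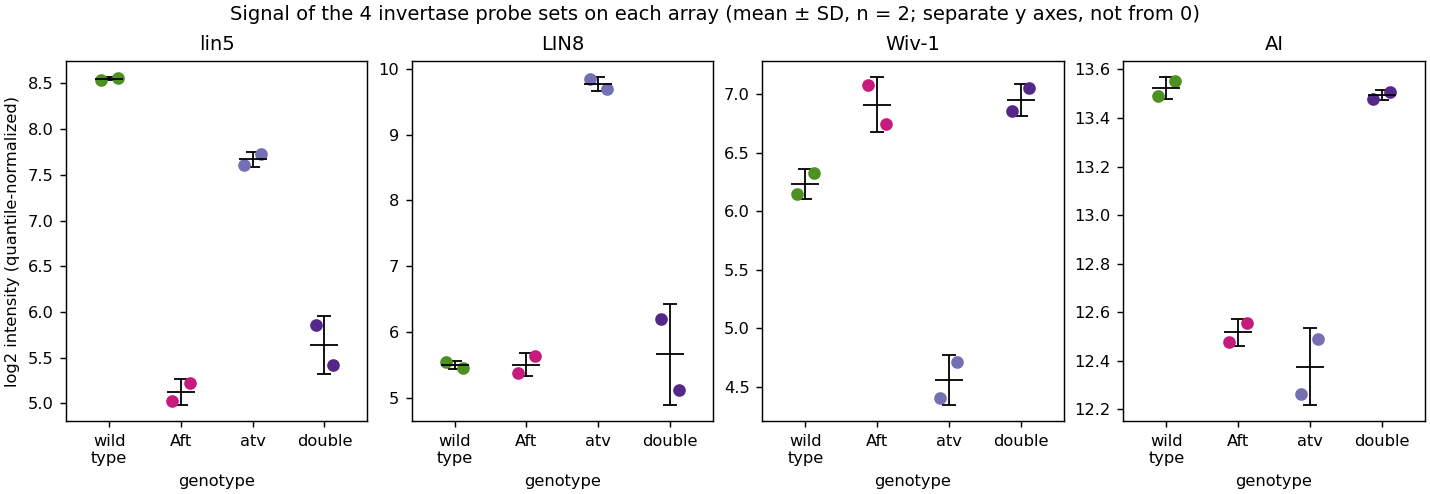
Log2 quantile-normalized intensity (vertical axis, a separate scale for each gene that does not start at 0) of the 4 invertase probe sets by genotype; points are single arrays, bars the mean ± SD of 2 arrays. The lin5 signal is lowest in Aft and the double mutant, LIN8 is high in atv at 9.76, Wiv-1 is lowest in atv at 4.56, and AI is lower in both single mutants than in the wild type and the double mutant.

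Wiv-1, the wound-responsive cell wall invertase gene next to LIN8 in the genome, was lowest in atv. The deposited intensity of Wiv-1 was 75.5 and 77.8 in the wild type, 97.4 and 123.4 in Aft, 27.1 on both atv arrays, and 109.1 and 104.4 in the double mutant. The atv arrays lay below all others, the wild type came next, and Aft and the double mutant overlapped above it. The log2 level was 6.95 ± 0.14 (SD, n = 2) in the double mutant, 6.91 ± 0.23 in Aft, 6.23 ± 0.13 in the wild type and 4.56 ± 0.21 in atv.

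Against the wild type, Wiv-1 fell by 1.67 in atv (SE 0.17, limma adjusted p = 0.0011), or 3.19-fold, on the arrays where its neighbour LIN8 rose. The double mutant exceeded atv 5.25-fold (difference 2.39, limma adjusted p = 0.00030). In atv the Wiv-1 signal stood above 10.8% and 12.4% of the other probe sets, and whether it lies above background is likewise not established. At the upper end of the order, the double mutant and Aft differed by 0.04 (95% interval -0.39 to 0.47, limma adjusted p = 0.90). Aft and the wild type differed by 0.68 (95% interval 0.25 to 1.10), a difference that was not called (limma adjusted p = 0.10). The double mutant was called above the wild type by 0.72 (limma adjusted p = 0.0496), at the edge of the threshold. That call ended on the values as deposited (0.48, adjusted p = 0.20) and with the replicate block (adjusted p = 0.064). It also ended without the filter on low signal, with a floor of 16 and with an intensity trend. Without any single wild type, Aft or double mutant array the call ended as well, at differences of 0.63 to 0.81. Probe sequences were not used here, so hybridisation of one invertase transcript to the probe set of another was not tested. LIN8 and Wiv-1 differed in opposite directions between atv and each of the other genotypes.

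AI, the vacuolar acid invertase gene, was among the brightest signals of the array. It exceeded 88.8% to 98.7% of the other probe sets. Its deposited intensity was 11802.9 and 11572 in the wild type, 5257.4 and 6741.5 in Aft, 5279.5 and 5533 in atv, and 11715.5 and 11001.4 in the double mutant. Both single mutants lay at about the same level, well below the wild type and the double mutant, which overlapped. The log2 level was 13.52 ± 0.04 (SD, n = 2) in the wild type, 13.49 ± 0.02 in the double mutant, 12.52 ± 0.06 in Aft and 12.38 ± 0.16 in atv.

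AI fell 2.01-fold in Aft (log2 difference -1.01, SE 0.11, limma adjusted p = 0.0060) and 2.21-fold in atv (-1.15, SE 0.11, limma adjusted p = 0.00085) against the wild type. In the double mutant it differed from the wild type by -0.03 (95% interval -0.30 to 0.24, limma adjusted p = 0.87). The double mutant lay above atv by 1.12 (limma adjusted p = 0.00080) and above Aft by 0.98 (limma adjusted p = 0.014), while atv and Aft differed by -0.14 (95% interval -0.41 to 0.13, limma adjusted p = 0.34). The call between double mutant and Aft ended as deposited (0.93, adjusted p = 0.096), without Aft 1 (adjusted p = 0.078), without double mutant 1 (adjusted p = 0.062) and without double mutant 2 (adjusted p = 0.095). The call between Aft and wild type ended without wild type 1 (adjusted p = 0.052) or wild type 2 (adjusted p = 0.061).

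**Figure D2:**
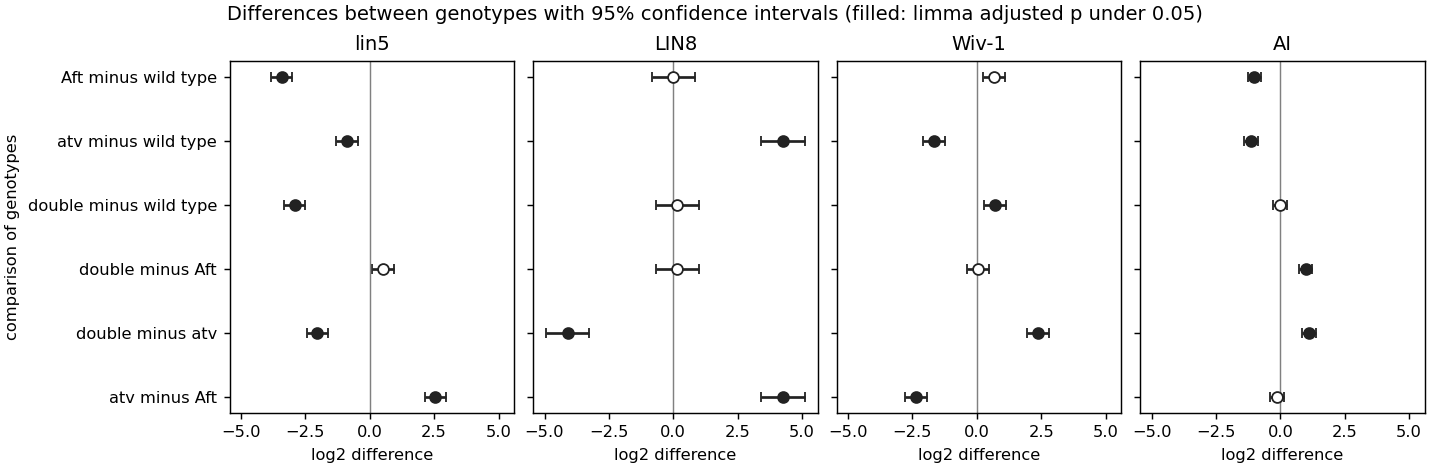
Log2 differences between genotypes (horizontal axis, 0 marked by a line) for the 4 invertase probe sets, with 95% intervals from limma; filled points have an adjusted p under 0.05. The lin5 differences are below 0 for every comparison of a genotype with Aft against one without it, and the LIN8 differences that are filled all involve atv, at 4.25 or more in size for atv above wild type and above Aft.

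Counted over the family, the calls were most frequent where atv was one of the genotypes compared, as they were over all probe sets. Against the wild type, 2 of the 4 genes fell in Aft (lin5 and AI) and none rose, where 5.58% of all probe sets tested were called in either direction. In atv all 4 passed, LIN8 rising and lin5, Wiv-1 and AI falling, where 40.3% of all probe sets were called. In the double mutant lin5 fell and Wiv-1 rose, where 13.1% were called. That Wiv-1 call was at the edge of the threshold and ended in the other settings named above. Between double mutant and Aft, AI alone passed, where 4.10% were called. Between double mutant and atv all 4 passed, Wiv-1 and AI higher and lin5 and LIN8 lower in the double mutant, where 44.0% were called. Between atv and Aft 3 passed, where 43.7% were called: lin5 was higher in atv by 2.55, LIN8 higher by 4.25, and Wiv-1 lower (-2.35). These comparisons share arrays, so their counts are not independent of each other. The 4 genes were also chosen with earlier results of these data known, so the counts are a description. The median difference of the 4 genes from the wild type was -0.50 in Aft, -1.01 in atv and 0.07 in the double mutant, beside 0.00, -0.11 and 0.04 over all probe sets tested.

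The interaction of the alleles asks whether the double mutant differs from what the changes of the single mutants add up to on the log2 scale. All 4 invertase genes passed this test, where 24.2% of all probe sets were called. For AI, the falls in the single mutants added up to -2.15, which would put the double mutant at a log2 level of 11.37. The AI level in the double mutant was 13.49, so the interaction was 2.12 (SE 0.15, limma adjusted p = 0.00073). For LIN8 the single changes added up to a level of 9.76, and 5.66 was measured, an interaction of -4.10 (SE 0.48, limma adjusted p = 0.0034). For Wiv-1 the sum gave 5.24 against 6.95 measured, an interaction of 1.71 (SE 0.24, limma adjusted p = 0.0066). For lin5 the sum gave 4.24 against 5.64 measured, an interaction of 1.40 (SE 0.24, limma adjusted p = 0.011), and this call ended on the values as deposited (1.22, adjusted p = 0.13). The sum for lin5 lies close to the filter's level of 4, and the part of the low end of the signal range in this interaction was not tested.

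**Figure D3:**
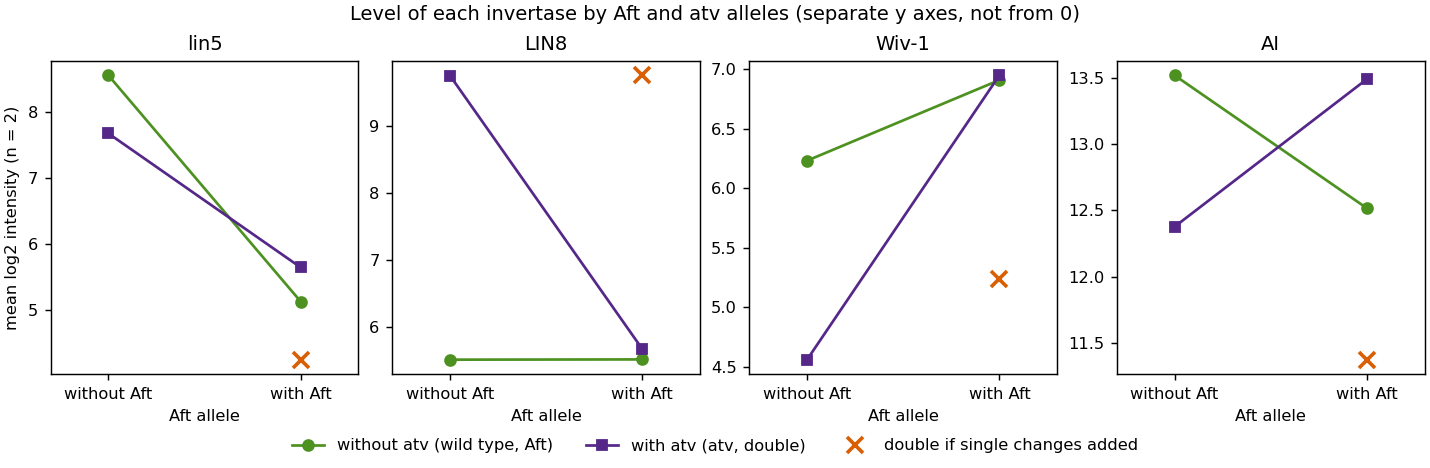
Mean log2 intensity (n = 2 arrays) of each invertase without and with the Aft allele, in genotypes without atv (circles) and with atv (squares); each gene has its own vertical scale, which does not start at 0. The cross marks the double mutant level that the 2 single-mutant changes would add up to, such as 11.37 for AI against 13.49 measured and 9.76 for LIN8 against 5.66 measured.

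The array also held LIN7 and an invertase inhibitor. LIN7, the invertase gene next to lin5 in the genome, is known for expression in pollen and anthers. LIN7 read 201.1 and 185.7 in the wild type, 152.4 and 185.6 in Aft, 126.2 and 80.3 in atv, and 142 and 94.4 in the double mutant. The LIN7 level fell by 1.18 in atv against the wild type (SE 0.19, limma adjusted p = 0.0049), a call that ended as deposited (-0.94, adjusted p = 0.071). In Aft, where lin5 fell 10.8-fold, LIN7 differed from the wild type by -0.11 (95% interval -0.57 to 0.35).

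CIF1 is named as an invertase inhibitor, a protein that binds invertase and blocks it. CIF1 read 4218.2 and 4478.2 in the wild type, 1178.1 and 1449.8 in Aft, 6309 and 6594.6 in atv, and 2100 and 1934.5 in the double mutant, with no overlap between any of the genotypes. CIF1 fell by 1.69 in Aft (SE 0.13, limma adjusted p = 0.0022) and fell by 0.94 in the double mutant (limma adjusted p = 0.011) against the wild type. The lin5 level also fell in Aft and the double mutant. In atv, CIF1 rose by 0.63 (limma adjusted p = 0.014), where lin5 was called lower than the wild type (-0.88). That lin5 call ended as deposited and without either wild type array. The CIF1 interaction did not pass the test, at 0.12 (95% interval -0.35 to 0.59). The call in atv ended as deposited (0.57, adjusted p = 0.070) and without wild type 1 (adjusted p = 0.091), and the call in the double mutant without wild type 1 (adjusted p = 0.052), wild type 2 (adjusted p = 0.078) or double mutant 1 (adjusted p = 0.061).

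Other genes of sugar handling were found by symbol in 6 lists, which gave 20 probe sets for 19 genes, LIN7 and CIF1 included, of which 19 probe sets were tested. Against the wild type, 2 rose and 2 fell in Aft, 2 rose and 8 fell in atv, and 1 rose and 5 fell in the double mutant. The called share of the list was 21.1%, 52.6% and 31.6%, beside 5.58%, 40.3% and 13.1% of all probe sets tested. The lists were chosen with earlier results of these data known, and SUT4 counts by 2 probe sets. These shares are therefore a description, and no enrichment was tested. The median difference over the 19 was -0.04, -0.27 and 0.00 in that order, beside 0.00, -0.11 and 0.04 over all probe sets. As deposited, the counts were 0 and 2, 1 and 3, and 0 and 2, where 290, 1987 and 442 of all 9493 probe sets were called. With single arrays left out, Aft had 2 falls and no rise without wild type 2 or Aft 1, and atv had 1 rise and 5 falls without wild type 1. The double mutant then had 1 fall and no rise without wild type 1, wild type 2 or double mutant 1, and 2 falls and no rise without double mutant 2. Without atv 1 or atv 2 it had 3 rises and 6 falls, and atv had 4 rises and 8 falls without atv 1.

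The transporters of sugars held the largest of these falls in atv. HT1, which encodes a hexose transporter that takes up the products of cell wall invertase, read 1725.3 and 1461.7 in the wild type, 2356.9 and 3127.8 in Aft, 419.5 and 266.6 in atv, and 3117.5 and 2532.8 in the double mutant. HT1 fell by 2.35 in atv (SE 0.15, limma adjusted p = 0.00023), as Wiv-1 did by 1.67, and the double mutant lay above atv by 3.35 (limma adjusted p = 7.4e-05). In Aft and in the double mutant HT1 was called 0.82 and 1.0 above the wild type, and both calls ended as deposited (adjusted p = 0.36 and 0.17) and without any single array of the groups compared, and the Aft call also without either double mutant array (adjusted p = 0.087). HT2, a further hexose transporter gene, rose by 1.41 in Aft (limma adjusted p = 0.0081; 0.076 as deposited, 0.062 without wild type 2 and 0.057 without Aft 1).

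The sucrose transporter gene SUT4 fell in all 3 mutants by 1 of its 2 probe sets, with differences from the wild type of -1.18 in Aft, -1.66 in atv and -1.16 in the double mutant (limma adjusted p = 0.0032, 0.00022 and 0.0029). The other probe set of SUT4 passed in atv (-1.78) and in the double mutant (-1.08, with a call that ended as deposited, at adjusted p = 0.052, and without any single wild type or double mutant array). SUT2, another sucrose transporter gene, fell by 0.65 in atv (limma adjusted p = 0.0033; 0.091 as deposited). Between double mutant and atv all 6 transporter probe sets rose, against 44.0% of all probe sets called in either direction, with the smallest difference for the hexose transporter gene HT3 (0.50, limma adjusted p = 0.031). As deposited 1 of the 6, HT1, passed, where 2252 of all 9493 probe sets were called in either direction. With single arrays left out, HT3 and both SUT4 probe sets could lose their calls. Their differences then ranged from 0.34 to 0.67 for HT3, and from 0.44 to 0.58 and 0.52 to 0.88 for SUT4.

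**Figure D4:**
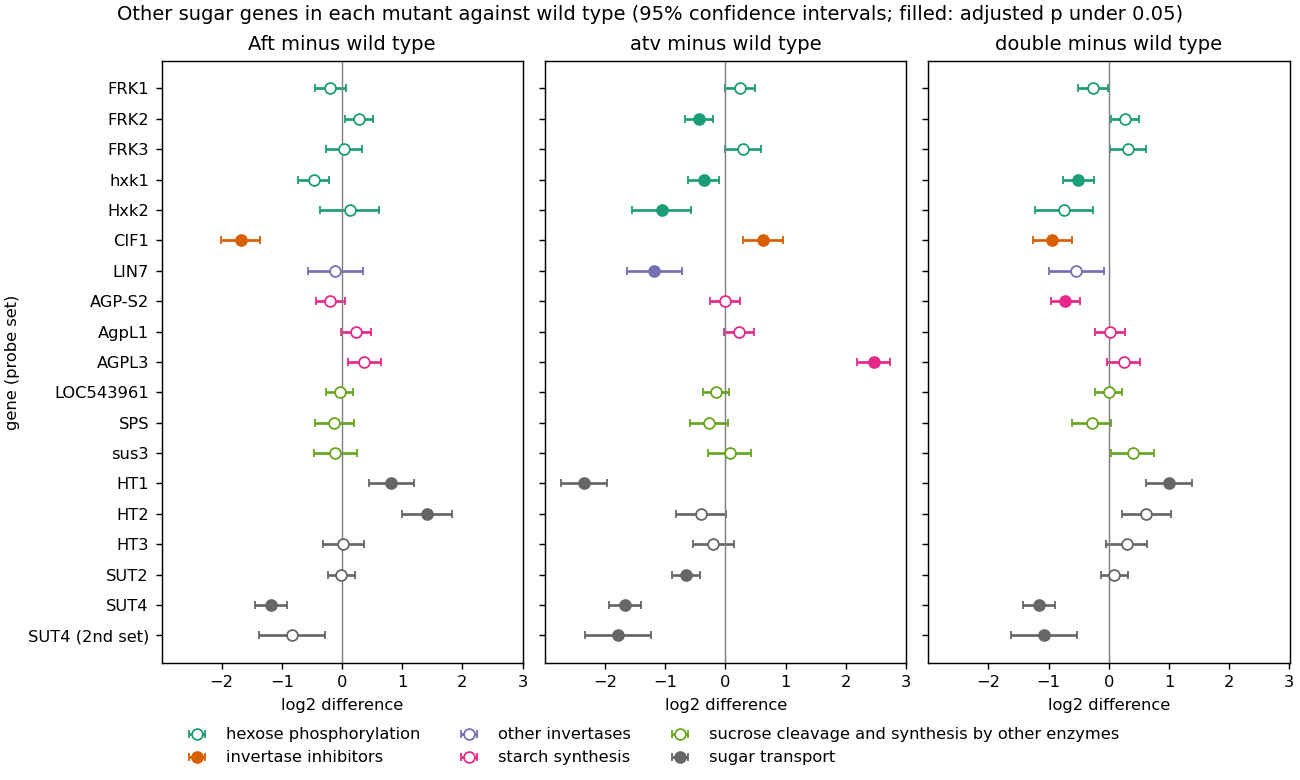
Log2 differences from the wild type (horizontal axis) of the 19 tested probe sets of other sugar genes in Aft, atv and the double mutant, with 95% intervals; colours mark the list and filled points have an adjusted p under 0.05. In atv AGPL3 lies at 2.46 and HT1 at -2.35, and CIF1 lies below 0 in Aft and the double mutant and above 0 in atv.

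Other enzymes make or use sucrose and hexoses. The sucrose synthase genes sus3 and LOC543961 (synonyms SUS1 and sus2) and the sucrose phosphate synthase gene SPS lay between -0.29 and 0.40 of the wild type in all mutants, and none of the 3 passed any of the 7 comparisons. Of the 5 tested genes for kinases that phosphorylate hexoses, 3 fell in atv, where 40.3% of all probe sets were called: Hxk2 by 1.06, FRK2 by 0.44 and hxk1 by 0.36. The Hxk2 call (limma adjusted p = 0.0090) ended as deposited (adjusted p = 0.072) and without wild type 1 (adjusted p = 0.056). The FRK2 call ended as deposited and without either wild type array (adjusted p 0.075 to 0.091), and the hxk1 call as deposited (adjusted p = 0.26) and without any single array (adjusted p 0.054 to 0.18). FRK1, a fructokinase gene, was lower in the double mutant than in atv (-0.50, limma adjusted p = 0.011), a call that ended as deposited (adjusted p = 0.065) and without double mutant 1 (adjusted p = 0.066) or double mutant 2 (adjusted p = 0.059). Of 3 genes for ADP-glucose pyrophosphorylase, the enzyme at the entry to starch synthesis, AGPL3 rose by 2.46 in atv (limma adjusted p = 7.6e-05), or 5.50-fold, and like LIN8 it was not called in the double mutant (difference from wild type 0.25). AGP-S2, listed with the synonym agpL2, fell by 0.72 from wild type to double mutant (limma adjusted p = 0.0092), a call that ended as deposited (adjusted p = 0.075) and without any single wild type or double mutant array (adjusted p 0.051 to 0.082).

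Named genes with the pattern most like each invertase were sought by the root-mean-square difference of log2 values over the 8 arrays, after each gene's own mean was subtracted, among 656 probe sets with an informative symbol. This measure is a description, since arrays of 1 genotype share their genotype and many genes follow the split of atv from the rest. Nearest to lin5 were MT2 at 0.53, NSY at 0.61 and AAP1 at 0.63, where the median over all candidates was 1.48. Nearest to LIN8 were ER24 at 0.44, XTH3 at 0.49 and CAB5 at 0.66, against a median of 1.90. Wiv-1 was followed most closely by XTH16 at 0.30, PAP1 at 0.30 and gdh1 at 0.31, against a median of 1.01. AI had IMP1 at 0.18, LePK5 at 0.21 and yfe37 at 0.23, against a median of 0.64. The LePK5 signal was near the filter's level of 4. Its mean log2 was 4.46 in the wild type, 3.67 in Aft, 3.76 in atv and 4.61 in the double mutant. Whether it lies above background is not established. XTH3 and XTH16 encode xyloglucan endotransglucosylases, CAB5 a chlorophyll-binding protein, gdh1 a glutamate dehydrogenase and NSY a carotenoid enzyme.

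**Figure D5:**
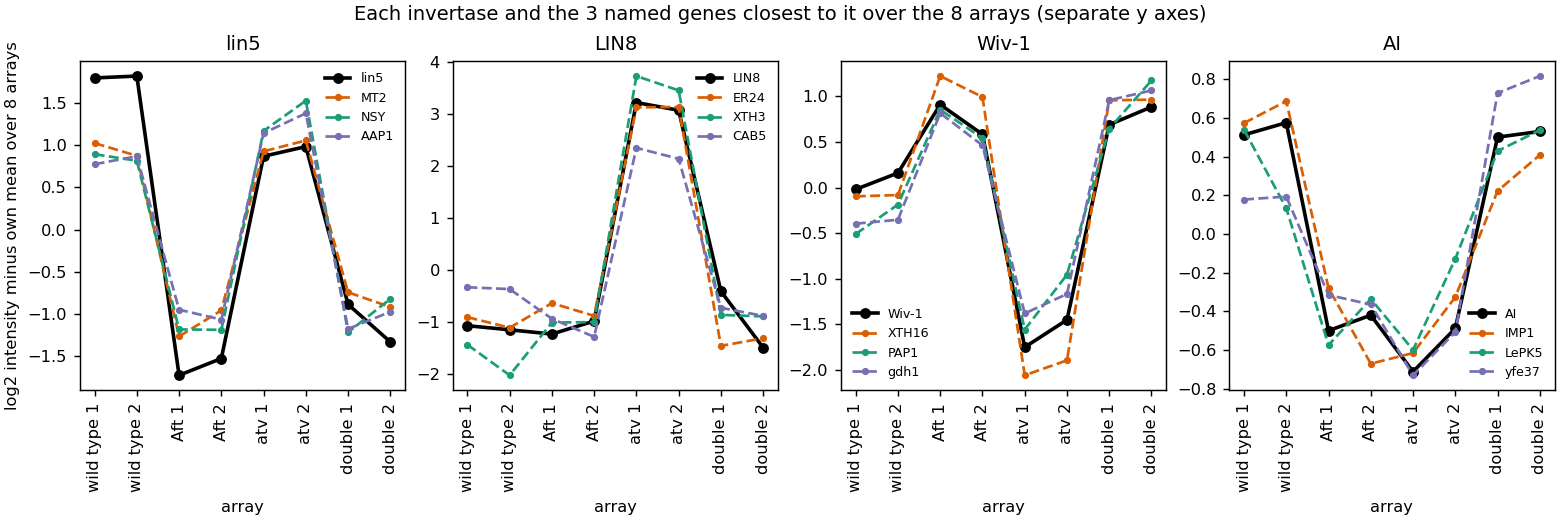
Log2 intensity minus each gene's own mean over the 8 arrays (vertical axis, a separate scale for each panel) for each invertase (solid line) and its 3 nearest named genes (dashed lines); lines join arrays only to guide the eye. The nearest genes follow the invertase with root-mean-square differences of 0.18 for IMP1 with AI up to 0.66 for CAB5 with LIN8.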

How the data were processed

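The authors deposited 1 intensity per probe set and array on a linear scale. GCRMA is listed in the submitters' processing notes with no version, and the reference level of the intensities is not stated there. Because array medians differed, quantile normalization was applied across the 8 arrays, with a floor of 1 before log2 values were computed. Of 10209 probe sets, 171 controls were left out and 545 failed the filter, a log2 of at least 4 on at least 2 arrays, leaving 9493. Group means were fitted with limma 3.58.1 in R 4.3.3 (4 residual and 1.77 prior degrees of freedom). The tests were two-sided, on 5 genotype pairs and the interaction; atv against Aft was added to order the levels. The labels call the replicates biological without saying whether plants or fruits were shared, and 2 arrays per genotype limit the precision. Alternatives were the deposited scale, no filter, a floor of 16, the replicate number as a block, an intensity trend, each array left out, and a whole genotype left out of the fit (chosen after seeing the data, except for atv). Genes named are the 4 invertases, sugar list genes that passed a test, the 3 nearest genes of each invertase, CHS1 and DFR, and the peel, seed and trichome markers; the sugar lists cover other invertases, inhibitors, other sucrose enzymes, transport, hexose kinases and starch. Sucrose synthase and phosphate synthase genes, which passed no test, and FRK4, which was not tested, were named after their values were seen. Members and lists were chosen with earlier results of these data known. On simulated data for Aft against wild type (9493 probe sets, 50 changed at each size) the fit recovered 5 changes of 0.5, 28 of 1, 46 of 2 and 49 of 3 on the log2 scale, with 5 false among 133 calls. The simulated noise was normal and independent between probe sets, without normalization or floor, and few probe sets were changed. These rates therefore need not hold for the measured arrays.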

Additional observations from a re-analysis of the deposited data

Results flagged for a closer look

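The difference between lines with and without Aft was not the same without and with atv, by the interaction term in limma on the log2 scale. The term passed for all 4 invertase genes: lin5 (1.40, adjusted p = 0.011), LIN8 (-4.10, adjusted p = 0.0034), Wiv-1 (1.71, adjusted p = 0.0066) and AI (2.12, adjusted p = 0.00073). Over all probe sets tested, 24.2% were called for this term. It compares 4 lines, in which an allele and its line background cannot be told apart. Of the 19 other sugar probe sets tested, 4 passed above 0 and 2 below 0, or 31.6%, beside the 24.2% of all probe sets. That share is a description, and no enrichment was tested. Among these sugar genes the interaction passed for HT1 (2.53, adjusted p = 0.0012) and AGPL3 (-2.58, adjusted p = 0.00043). Smaller interactions were found for SUT2 (0.76, adjusted p = 0.012) and AGP-S2, which RefSeq lists with the synonym agpL2 (-0.52, adjusted p = 0.045). SUT4 was found by both of its probe sets (1.69, adjusted p = 0.0014, and 1.53, adjusted p = 0.020). As deposited, the interactions of lin5 (adjusted p = 0.13), SUT2 (adjusted p = 0.33), AGP-S2 (adjusted p = 0.29) and SUT4 (adjusted p = 0.060 and 0.096) did not pass. With single arrays left out, AGP-S2, SUT2 and the SUT4 probe set at 1.53 could also lose their calls. Their interactions then ranged from -0.58 to -0.46, 0.71 to 0.81 and 1.32 to 1.74 in that order.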

How the results depend on the processing

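Of 28 tests of the 4 invertases 20 were called, and as deposited 20 kept their sign and 16 their call. The calls lost were lin5 in atv against wild type (-0.70) and in the interaction (1.22), Wiv-1 in the double mutant against wild type (0.48) and AI between double mutant and Aft (0.93). Wiv-1 in the double mutant was also lost without the filter, with a floor of 16, with the replicate block and with the intensity trend (0.72 in each), and without both Aft arrays (0.71). With single arrays left out, the changes that lost a call ranged from -1.06 to -0.96 (AI, Aft against wild type), -0.94 to -0.84 (lin5, atv against wild type), 0.63 to 0.81 (Wiv-1, double mutant against wild type) and 0.93 to 1.03 (AI, double mutant against Aft). No called invertase change reversed; changes that were not called, such as LIN8 in Aft against wild type (0.0037, and -0.14 as deposited), could change sign. For each loss the cause was not tested.

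In the order of Aft, atv and double mutant against wild type, double mutant against Aft, against atv, atv against Aft, and interaction, 530, 3829, 1246, 389, 4178, 4151 and 2293 probe sets were called, and as deposited 290, 1987, 442, 76, 2252, 2276 and 872. The share of calls that were higher moved as deposited from 46.7% to 60.9% (atv against wild type), 56.3% to 39.6% (double mutant against wild type), 56.2% to 31.0% (double mutant against atv), 46.2% to 64.1% (atv against Aft) and 51.7% to 31.1% (interaction). The median of all probe sets moved by up to 0.23 in size between the scalings, and invertase changes taken relative to it by at most 0.23. With single arrays left out the counts were 205 to 562, 2124 to 3825, 355 to 2211, 77 to 878, 2584 to 4237, 3043 to 4054 and 1172 to 2606. The intensity trend gave 1984 for double mutant against wild type and 698 against Aft, leaving out both atv arrays gave 2269 and 903, and leaving out both wild type arrays gave 152 for double mutant against Aft.

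The replicate numbers are not stated to mark a shared plant or day; differences between replicates correlated between genotypes with r of -0.04 to 0.18. With the replicate block the counts were 456, 3765, 1364, 356, 4111, 4137 and 2170 in the same order, and among the invertases only the call of Wiv-1 in the double mutant against wild type ended (0.72, adjusted p = 0.064). Signals of lin5 in Aft carriers, of LIN8 outside atv and of Wiv-1 in atv were low. Whether they lie above background is not established, and the standard errors of their folds do not cover that limit.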

Other observations

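FRK4, a fructokinase gene of the hexose kinase list, failed the filter on low signal. FRK4 read 5.3 and 2.2 in the wild type, 1.5 and 0.9 in Aft, 9.6 and 6.8 in atv, and 1.4 and 2.1 in the double mutant, as deposited intensities, and no test was made.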
